A study of Mus musculus with 4 samples.

Results

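Cxcr2-high Siglecf-negative neutrophils of the mouse nasal mucosa were described here across 4 single-cell RNA libraries. They were chosen on their own measured transcripts: among barcodes with at least 500 UMIs (unique molecular identifiers, each counting 1 captured transcript), at least 200 genes and under 10% of UMIs from mitochondrial genes, a cell was taken when it held at least 2 UMIs of Cxcr2, at least 1 UMI of Csf3r and Il1r2 together, no UMI of Siglecf, under 2 UMIs of Csf3, under 5 UMIs of Camp, Ltf and Ngp together, and none of C1qa, C1qb, C1qc, Cd3e or Cd79a. This took 8960 of the 72320 cells that passed the filters, out of 79132 deposited barcodes. The libraries were titled Vehicle, Vehicle-OVA, Ribavirin and Ribavirin-OVA, and each held CD45+ cells from the digested nasal mucosa of C57BL/6 mice of 8 weeks. OVA stands for ovalbumin, with which allergic rhinitis was modelled, and the series title speaks of a spray of ribavirin, an antiviral nucleoside analogue. The sample descriptions name magnetic sorting for CD45 and the series text names flow sorting. Each group had 1 library, the number of mice in a library was not stated, and no dose or time course of either agent was used here.

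With 1 library per group there is no spread between samples, so no test was made and no p-value is given. Intervals are 95% exact intervals for counting error only, Clopper-Pearson for shares of cells and conditional binomial for ratios of UMI sums. Levels are in CPM, the UMIs of a gene summed over the members of a library and scaled to 1000000 UMIs in all. A log2 ratio was taken after 5 CPM were added to both levels, which understates the ratio of low genes, and a gene was counted as past 2-fold where that ratio was beyond 1 or below -1. Differences between libraries can be those of the mice, of the sort, of the library or of the treatment, and these cannot be told apart.

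Neutrophils are short-lived granulocytes that leave the blood along gradients of ELR chemokines such as Cxcl1, Cxcl2 and Cxcl3. Cxcr2 is the receptor for these chemokines, Csf3r that for granulocyte colony-stimulating factor, and Il1r2 a decoy receptor that takes up interleukin-1. In tissues, some neutrophils lose Cxcr2 and gain the lectin Siglecf, while cells that carry Camp, Ltf and Ngp transcripts are less mature and still hold the messages of the secondary granules. Once activated, neutrophils make chemokines and cytokines through NF-kB, the factor that is released when its inhibitor Nfkbia is destroyed, and they answer to interferon with a set of antiviral genes.

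The marker genes that the choice did not use were all present, which does not by itself set the population apart from other neutrophils. The 6 such markers are Lrg1, a leucine-rich glycoprotein of granulocytes, G0s2, a lipase inhibitor, Trem1, an activating receptor, Hdc, which makes histamine, and Asprv1 and Stfa2l1, a protease and a stefin. Lrg1 stood at 1166 CPM in Vehicle, 869 in Vehicle-OVA, 1079 in Ribavirin and 873 in Ribavirin-OVA, and Hdc at 1891, 3198, 2619 and 2282 CPM in the same order. All 6 were present in all 4 libraries, and none was past 2-fold in any comparison of libraries. Their median log2 ratio was 0.34 for Vehicle-OVA over Vehicle and -0.30 for Ribavirin-OVA over Ribavirin. The S100 alarmins led the transcriptome, with S100a8 at 26840, 31620, 30900 and 20910 CPM and S100a9 at 48470, 45040, 62450 and 32570 CPM.

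Markers of other cells were low but not absent. Of the 9 eosinophil markers 3 or 4 were at 0 in each library, Epx and Ear1 among them in all 4, and the list summed to 7.92 to 24.4 CPM. The T and NK cell markers summed to 190.1, 32.3, 140.1 and 72.8 CPM, and the dendritic cell markers to 2177, 335, 1582 and 428 CPM, most of it the class II genes. The monocyte and macrophage markers summed to 1451, 614, 1189 and 909 CPM, with the 3 C1q genes at 0 by the choice of cells. The B and plasma cell list gave 520, 106, 384 and 287 CPM, the mast cell and basophil list 5.81, 56.2, 9.23 and 63.8 CPM, the epithelial and olfactory list 283, 155, 2391 and 1307 CPM, and the platelet and erythroid list 4.13, 6.30, 6.28 and 4.07 CPM. So these lymphoid and antigen-presenting signals were lowest in the OVA libraries and the epithelial signal was highest in the ribavirin libraries. Their part in the results was not tested, and their values are given again where they touch a gene.

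Just inside and just outside the Cxcr2 threshold the cells differed in degree. In Vehicle, the 366 cells that met the rest of the rule with 1 Cxcr2 UMI held Lrg1 at 357 CPM, S100a9 at 24560 and Cd74 at 4319, and the 329 members with 2 UMIs held 657, 37260 and 1120 CPM. In Vehicle-OVA, Lrg1 was at 155 CPM in the 767 cells with 1 UMI and at 299 CPM in the 444 with 2. Cells with exactly 2 UMIs made up 10.1% to 13.9% of the members of a library, and the median member held 5, 7, 6 and 7 Cxcr2 UMIs.

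The 4 libraries held 10311 to 28277 barcodes and 91742940 to 171873110 UMIs. The median member held 2089 UMIs in Vehicle, 3262 in Vehicle-OVA, 2651 in Ribavirin and 2857 in Ribavirin-OVA, with 830 to 1118 genes and a median of 0.691% to 1.19% mitochondrial UMIs. Any pair of libraries shared 57 to 174 barcodes, of which 0 to 3 were members in both. Neutrophil RNA outside neutrophils was measured in T cells, whose median depth was 4465 to 5683 UMIs: 10 neutrophil genes stood there at 1.92% to 3.95% of the member level in Vehicle and at 2.34% to 3.6% in Ribavirin, and with OVA at 3.05% to 6.86% and 0.649% to 2.08%. Each sum of counts thus rests on 2210441 to 11741380 member UMIs, the fewest in Ribavirin-OVA.

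The share of the population among CD45+ cells was higher with OVA in the vehicle libraries and lower with OVA in the ribavirin libraries. It was 9.66% in Vehicle (2485 of 25727 cells, 95% interval 9.30% to 10.0%), 18.2% in Vehicle-OVA (3187 of 17498, 17.6% to 18.8%), 12.8% in Ribavirin (2585 of 20278, 12.3% to 13.2%) and 7.97% in Ribavirin-OVA (703 of 8817, 7.42% to 8.56%). No pair of these intervals overlapped, but they cover counting error only and not the spread between mice or libraries. As log2 ratios of shares, Vehicle-OVA over Vehicle was 0.92 and Ribavirin-OVA over Ribavirin was -0.68, while Ribavirin over Vehicle was 0.40 and Ribavirin-OVA over Vehicle-OVA -1.19. Each ribavirin comparison shares a library with an OVA comparison, and only the OVA pairs share none with each other. A share of sorted cells also moves with every other cell type in the sort, and fewer neutrophils cannot be told apart from more of the rest.

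**Figure D1:**
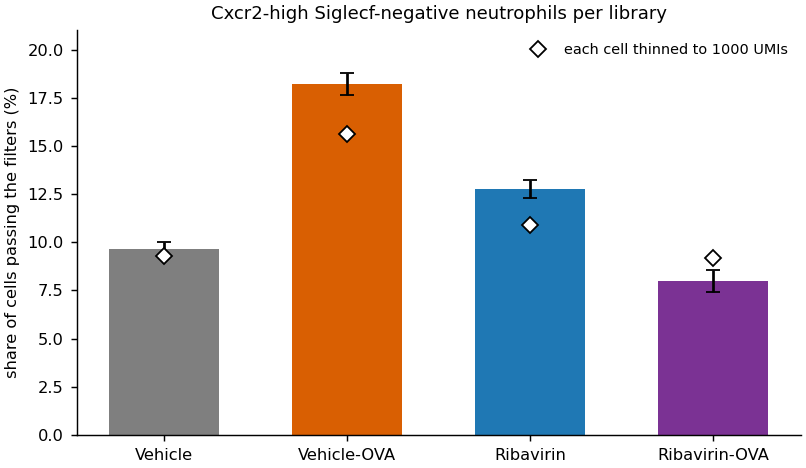
Share of Cxcr2-high Siglecf-negative neutrophils among the cells of each library that passed the filters, in percent. Bars give the share with its 95% Clopper-Pearson interval (counting error only) and diamonds the share after each cell was thinned to 1000 UMIs. Vehicle-OVA stands highest at 18.2% and Ribavirin-OVA lowest at 7.97%.

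The population's part of 4 neutrophil sets differed less than its share of all cells. Cells that met the rest of the rule with 0 or 1 Cxcr2 UMI were in none of these sets. They numbered 1286 and 366 in Vehicle and 2989 and 767 in Vehicle-OVA, so the part of all neutrophils was not measured. Of the cells taken by 4 neutrophil rules together (this one, Siglecf-positive, Csf3-transcribing and secondary-granule cells), the Cxcr2-high cells were 66.5%, 69.3%, 71.9% and 62.4%, so that the log2 ratio of this share was 0.06 for Vehicle-OVA over Vehicle and -0.20 for Ribavirin-OVA over Ribavirin. The other sets did not all follow the population: Siglecf-positive neutrophils were 4.54%, 2.08%, 3.83% and 2.85% of all cells and secondary-granule neutrophils 0.307%, 0.772%, 0.952% and 1.89%. In numbers, Siglecf-positive neutrophils counted 1168, 364, 776 and 251 cells, Csf3-transcribing neutrophils 5, 912, 44 and 5, and secondary-granule neutrophils 79, 135, 193 and 167. With every cell thinned to 1000 UMIs the log2 ratio of the shares of all cells was 0.75 for the vehicle pair and -0.24 for the ribavirin pair.

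Against Siglecf-positive neutrophils of the same library, the population held more of the messages of some S100 proteins, stefins and chemokines. Past 2-fold higher in all 4 libraries were 164 of 10535 genes tested (1.56%), and 695 (6.60%) were past 2-fold lower. That split turned with the scaling, to 498 higher and 99 lower when libraries were scaled by the median gene ratio, so only the larger differences are named. The sets were cut on single genes and the comparison is a description. Mmp8, neutrophil collagenase, stood at 225, 701, 245 and 471 CPM in the members and at 12.6, 63.8, 12.5 and 5.01 CPM in the Siglecf-positive cells. Retnlg, a resistin-like protein of mature neutrophils, was at 1551, 4954, 2211 and 3278 against 72.0, 574, 268 and 53.1 CPM. Both differed by over 3 on the log2 scale in every library. The granule list as a whole did not differ so: 2 of 12 genes were past 2-fold higher in all 4 libraries and none lower. Its medians were -0.12, 0.60, -0.53 and 0.18.

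The list of neutrophil identity genes had 6 of 12 members past 2-fold higher (Retnlg, Ly6g, Mxd1, Hcar2, Wfdc21 and Clec4d) and none lower, and 4 of the 6 markers (Lrg1, Hdc, Asprv1, Stfa2l1) were higher. Of 13 S100 proteins and stefins 6 were higher, S100a6 among them, and of 12 pattern recognition genes 6 (Tlr2, Tlr4, Cd14, Trem3, Clec4d and Clec4e). The chemoattractant receptors gave 4 of 12 (Cxcr1, Fpr1, C5ar1 and Ptafr), and the cytokine list 6 of 19 (Osm, Cxcl1, Cxcl2, Cxcl3, Cxcl10 and Ccl6). Osm, oncostatin M, was at 537, 1862, 828 and 1249 CPM against 95.4, 437, 148 and 159 CPM. In the interferon list 4 of 22 were higher (Rsad2, Oasl1, Slfn4 and Rtp4), with list medians of 1.75 and 1.73 in the libraries without OVA and 0.75 and 1.08 in those with it, where all genes had medians between -0.35 and -0.70. Rdh12, Asprv1, Crispld2 and Ccl6 were also among the 10 genes with the highest smallest ratio.

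The genes lower in the population than in the Siglecf-positive cells included 2 of the 11 lipid mediator genes tested, Ltc4s and Ptgs1. The medians of that list were -0.66, -1.01, -1.02 and -0.43, beside -0.35, -0.70, -0.50 and -0.46 for all genes. Ltc4s, which makes leukotriene C4, was at 82.2, 14.6, 50.3 and 37.6 CPM against 478, 213, 494 and 332 CPM, and Ptgs1, cyclooxygenase 1, at 54.9, 30.3, 36.9 and 90.9 against 212, 299, 197 and 344. Both were lower in all 4 libraries, by -1.86 or further below 0 on the log2 scale. Adamdec1, Cd72, Nckap5l, Rcan1, B3galt5, B3gnt7, Gpr171, Cysltr1 and Gpc3 make up the rest of the 10 lowest, with log2 ratios of -2.08 or further below 0 in every library. Of the 11 tested genes of the Siglecf-positive programme list, Ltc4s alone was past 2-fold lower, and of 10 stress granule genes Tial1 alone. Bax and Tubb5 were the other list genes lower in all libraries. Il1b, at 15850 to 20450 CPM in the members and 12100 to 15530 CPM in the Siglecf-positive cells, did not reach 2-fold in any library.

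**Figure D2:**
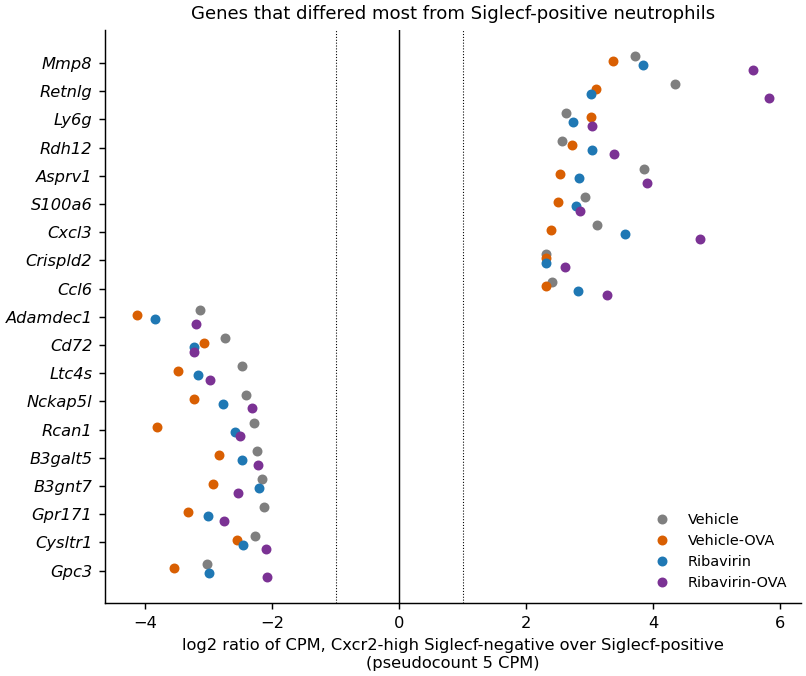
Log2 ratio of members over Siglecf-positive neutrophils for genes that differed most in either direction, with each point 1 of the 4 libraries. Points right of 0 are higher in the Cxcr2-high population; Retnlg and Mmp8 lie beyond 3 and Ltc4s below -2.4 in every library.

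Secondary-granule neutrophils of the same libraries were chosen by at least 5 UMIs of Camp, Ltf and Ngp together, messages known from less mature neutrophils. Past 2-fold higher in the population in all 4 libraries were 460 of 11097 genes (4.15%), and 646 (5.82%) were lower. Cytokines gave 14 of 19 higher, among them Il1b at 15850 to 20450 CPM against 959 to 4186 CPM and Cxcl2 at 11070 to 24860 against 963 to 6965 CPM. Ptgs2, the inducible cyclooxygenase, was at 1837, 3795, 2185 and 2656 against 174, 613, 130 and 122 CPM. Receptors for cytokines (10 of 19), interferon-stimulated genes (10 of 22) and genes of apoptosis and survival (10 of 17) were also higher, as were Fgl2, Itgax, Scimp, Prdm1, H2-Q10, Camkk1, Hic1, Prr5l and Sirpb1c. Lower were 5 of 10 granule genes that the choice had not used, Chil3 at 30.6, 45.1, 33.5 and 44.8 against 2841, 1098, 1443 and 923 CPM and Lcn2 at 600, 1766, 697 and 699 against 9062, 8629, 6198 and 6008 CPM, and 6 of 7 proliferation genes. The other set also held airway epithelial messages, so that Bpifa1, Bpifb3, Cyp2f2, Cyp2a5, Clu, Pigr, Cbr2, Sftpd and Cxcl17 made up 9 of its 10 leading genes. Bpifa1 was at 9402, 12130, 5913 and 15190 CPM there and at 27.4, 50.8, 112 and 339 CPM in the population, and the part of epithelial RNA in that comparison was not tested.

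Csf3-transcribing neutrophils were numerous enough to compare only in Vehicle-OVA. There 542 of 7595 genes (7.14%) were past 2-fold higher in the population and 194 (2.55%) lower, which turned to 186 higher and 356 lower with the other scaling. Cytokines were lower in 9 of 19 cases and NF-kB genes in 5 of 15, beside a median of all genes of 0.25, while the cytokines Csf1 and Cxcl10 were past 2-fold higher. Ccl3, a chemokine that draws monocytes and granulocytes, was at 3986 CPM in the population and 10490 in the Csf3-transcribing cells, Il10 at 15.3 and 74.1, and Sod2, the mitochondrial superoxide dismutase, at 373 and 1316. Higher in the population were Mmp8 at 701 against 176 CPM, Lrg1 at 869 against 247, Selplg at 704 against 234 and Alox5, the 5-lipoxygenase, at 67.5 against 14.7. Of the 6 markers that the choice did not use, Lrg1 alone was past 2-fold. The rest had log2 ratios from -0.10 (G0s2) to 0.55 (Trem1). No interferon gene of 22 was past 2-fold either way. The 10 lowest genes were led by Mmp3 at 0.681 against 471 CPM and held the fibroblast genes Col1a1, Col1a2 and Col12a1 beside Igfbp2, Inmt, Apod, Aqp1, Gm15056 and Edn1. Gpx6, Bpifb6, Bpifb4, Scgb1c1, Stoml3, Mcpt8, Slc35a5, Nlrp12, Fam101b and Mtus1 were the 10 highest.

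Between libraries, all ratios have to be read against the median of the 9563 genes tested, since it was not at 0. It was -0.32 for Vehicle-OVA over Vehicle, 0.22 for Ribavirin-OVA over Ribavirin, -0.20 for Ribavirin over Vehicle and 0.37 for Ribavirin-OVA over Vehicle-OVA, and 0.02, 0.00, -0.02 and -0.04 when the libraries were scaled by the median gene ratio. In Vehicle-OVA over Vehicle 335 genes (3.50%) were past 2-fold higher and 1184 (12.4%) lower, and 889 and 460 with that scaling. In Ribavirin-OVA over Ribavirin 447 (4.67%) were higher and 203 (2.12%) lower, against 121 and 389.

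With OVA in the vehicle libraries the population held more messages of inflammatory cytokines and of NF-kB regulators than without it. Of the 19 cytokine and chemokine genes tested, 13 were past 2-fold higher and none lower, with a list median of 1.40 against -0.32 for all genes (1.92 with the other scaling). Cxcl3 stood at 320 CPM in Vehicle and 3087 in Vehicle-OVA, 9.65 times as high (95% counting interval 9.23 to 10.1). Cxcl1 was at 29.8 and 87.0 CPM, a ratio of 2.92 (2.50 to 3.42), and Cxcl2 at 12030 and 24860 CPM, a ratio of 2.07 (2.05 to 2.08). Il1rn, the interleukin-1 receptor antagonist, was at 710 and 3893 CPM, 5.49 times as high (5.32 to 5.66), while Il1b itself was at 18270 and 20450 CPM. Thus the antagonist differed between the libraries by far more than the cytokine it blocks. Ccl3 was at 662 and 3986 CPM and Ccl4 at 1058 and 6325 CPM, ratios of 6.02 and 5.98. Il1a, Osm, Il23a, Ccl6 and Ccl9 were 2.37 to 3.47 times as high, with Osm at 537 and 1862 CPM. Il6 and Il10 were past 2-fold from low levels, Il6 at 1.07 and 26.4 CPM and Il10 at 1.38 and 15.3 CPM. Tnf, Csf1, Vegfa, Tnfsf14, Cxcl10 and Il1b were the 6 that were not past 2-fold.

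The share of cells told the same. Cxcl3 was seen in 13.7% of Vehicle and 59.5% of Vehicle-OVA members, and in 10.1% and 44.0% when each cell was thinned to 1000 UMIs, which left out 44 and 22 cells. In T cells, which should lack it, thinned shares were 0.572% and 10.2%. Il1rn was seen in 61.4% and 93.5% of members, and in 41.8% and 79.2% after thinning.

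Of 15 NF-kB response genes 8 were past 2-fold higher in Vehicle-OVA and none lower, with a median of 1.02 (1.55 with the other scaling). Nfkb1, which encodes the p105 precursor, was at 111 and 664 CPM, 5.96 times as high (5.52 to 6.44). Tnfaip3, the ubiquitin editor A20 that ends NF-kB signalling, was at 422 and 2105 CPM, a ratio of 4.99 (4.80 to 5.19). Nfkbia was at 2737 and 5610, Nfkbiz at 901 and 3451, Nlrp3, the inflammasome sensor, at 533 and 1435, and Ptgs2 at 1837 and 3795 CPM. Nfkb2 and Zc3h12a were the other members past 2-fold. Nfkb1 transcripts were also frequent in T cells, in 17.8% and 37.2% of them after thinning, against 9.34% and 35.3% of members.

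The promoters of the 3 chemokines and of Nfkbia are shown because the genes are the classical NF-kB targets of the lists above. The 250 bases before the start site were read from RefSeq (GRCm38.p6), and a strict form of the NF-kB site stands in capitals: GGGA, any base and TTTCC, or on the other strand GGAAA, any base and TCCC. Cxcl1 lies at chr5:90890995-90891244 on the plus strand, Cxcl2 at chr5:90903649-90903898 on the plus strand, Cxcl3 at chr5:90785851-90786100 on the plus strand and Nfkbia at chr12:55492648-55492897 on the minus strand.
Cxcl1: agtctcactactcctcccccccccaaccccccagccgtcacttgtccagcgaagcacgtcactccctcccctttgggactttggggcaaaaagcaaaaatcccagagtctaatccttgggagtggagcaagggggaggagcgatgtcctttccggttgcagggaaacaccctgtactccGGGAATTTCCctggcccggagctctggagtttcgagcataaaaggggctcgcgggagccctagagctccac
Cxcl2: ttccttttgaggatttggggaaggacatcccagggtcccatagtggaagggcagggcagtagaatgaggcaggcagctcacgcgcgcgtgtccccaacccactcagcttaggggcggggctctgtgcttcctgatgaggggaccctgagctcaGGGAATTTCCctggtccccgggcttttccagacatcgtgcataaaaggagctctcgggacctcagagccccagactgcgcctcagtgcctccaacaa
Cxcl3: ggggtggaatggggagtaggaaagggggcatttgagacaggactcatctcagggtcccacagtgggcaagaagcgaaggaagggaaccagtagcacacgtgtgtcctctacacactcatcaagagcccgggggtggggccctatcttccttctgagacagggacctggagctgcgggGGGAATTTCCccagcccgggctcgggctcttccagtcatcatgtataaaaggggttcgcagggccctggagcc
Nfkbia: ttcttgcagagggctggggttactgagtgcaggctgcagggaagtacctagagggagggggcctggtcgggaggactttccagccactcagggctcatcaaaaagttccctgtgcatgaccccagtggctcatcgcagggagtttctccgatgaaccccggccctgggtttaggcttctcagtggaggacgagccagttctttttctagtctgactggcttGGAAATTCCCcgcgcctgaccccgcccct
The match began 71, 97, 73 and 29 bases before the start. It was in 117 of 32851 RefSeq promoters of this length (0.356%) and in 45 of 9430 promoters of tested genes (0.477%). In the cytokine list 5 of 18 promoters held it (27.8%: Csf1, Cxcl1, Cxcl2, Cxcl3 and Il6; 15 genes matched) and in the NF-kB list 2 of 15 (13.3%: Nfkb2 and Nfkbia; 11 genes matched). Csf1, which holds it too, was at 459 CPM in Vehicle and 563 in Vehicle-OVA. A match is a run of letters and not a measured site.

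Receptors and sensors differed less. Of 12 chemoattractant receptors Fpr1 and Fpr2, which sense formylated bacterial peptides and lipids, were past 2-fold higher, Fpr1 at 124 and 319 CPM and Fpr2 at 239 and 639 CPM (list median 0.35). Of 19 cytokine receptors Tnfrsf1b, the second TNF receptor, was at 301 and 902 CPM and Il10ra at 119 and 322 (list median 0.21). Tlr2, Tlr4 and Cd14, which bind bacterial lipoproteins and lipopolysaccharide, were the 3 of 12 pattern recognition genes past 2-fold, with Cd14 at 2052 and 5523 CPM (list median 0.05). Of 5 Fc receptors Fcer1g was lower, at 3318 and 1295 CPM (list median -0.66). Cd274, the checkpoint ligand PD-L1, was at 226 and 691 CPM, and it was 1 of 3 genes of the Siglecf-positive programme list that were higher, with Nfkb1 and Hif1a, where Ltc4s was lower (median 0.46 of 10).

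Some genes of mature neutrophils and of granules were higher in Vehicle-OVA as well. The identity list had 5 of 12 past 2-fold higher (Retnlg, Ly6g, Hcar2, Wfdc21 and Cd177; median 0.57) and the granule list 3 of 9 (Lcn2, Mmp8 and Cd177; median 0.41) with Lyz2 lower. Mmp9, a gelatinase in both lists, was not past 2-fold, at -0.30 and 0.26 with the other scaling. Retnlg was at 1551 and 4954 CPM and Ly6g, the surface antigen used to stain mouse neutrophils, at 35.5 and 102 CPM, a ratio of 2.88 (2.50 to 3.33). Mmp8 was at 225 and 701, Lcn2, an iron-withholding lipocalin, at 600 and 1766 and Lyz2, lysozyme, at 1145 and 399 CPM. Retnlg was seen in 29.5% of Vehicle and 68.7% of Vehicle-OVA members after thinning, so the difference was not that of a few cells.

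Of 25 genes of glycolysis and hypoxia 8 were past 2-fold higher (Slc2a3, Pfkl, Slc16a3, Hif1a, Bnip3, Egln3, Ero1l and Ddit4; median 0.66, 1.18 with the other scaling). Ero1l, an endoplasmic reticulum oxidase, was at 61.0 and 295 CPM, and Slc16a3, a lactate exporter, at 362 and 972 CPM. Of 17 genes of apoptosis and survival Bcl2l1, Bcl2l11, Casp4 and Cflar were higher and Bax lower (median 0.12). Bcl2l11, the death-promoting Bim, was at 186 and 537 CPM. Adhesion genes gave Cd44 and Pecam1 higher and Itga4 and Itgax lower of 11 (median 0.05), lipid mediators Ptgs2 higher and Ltc4s lower of 10 (-0.48), and S100 proteins and stefins 3 higher (Stfa2, BC100530 and Gm5483) and 3 lower (S100a4, S100a10 and S100a11) of 13 (0.14). The stefin genes are near copies of each other, so their reads may be shared among them. The list of oxidative burst genes had Padi4 higher and Cyba lower of 8 (-0.40, and 0.16 with the other scaling), transcription factors Nfil3 and Maff higher and Klf4 and Irf8 lower of 17 (0.20; neither call held without the highest doublet scores, where Klf4 had -0.30 and Irf8 0.17), immediate early and heat shock genes Hspa1a and Hspa1b higher of 18 (0.13), proliferation genes Tubb5 lower of 6 (-0.65), and none of 10 stress granule genes was past 2-fold (-0.29, and 0.19 with the other scaling). G3bp1, the scaffold of stress granules, was at 46.2, 36.5, 32.4 and 48.9 CPM in the 4 libraries.

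**Figure D3:**
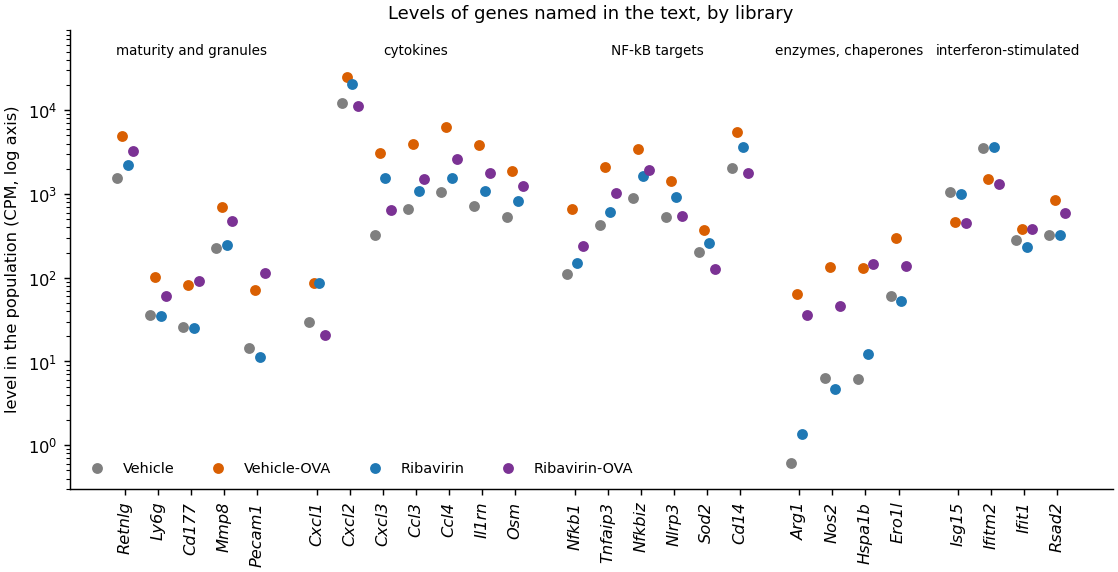
Level of 26 genes in the population, in CPM on a logarithmic axis, with each point 1 library. Vehicle-OVA is highest for Cxcl3, Il1rn, Ccl3, Ccl4, Nfkb1 and Tnfaip3, while Isg15 and Ifitm2 are lower in both OVA libraries.

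In the ribavirin libraries the picture with OVA was another. Of the 19 cytokine genes 3 were past 2-fold higher (Il6, Csf1 and Ccl9) and 2 lower (Cxcl1 and Cxcl3), and the list median was 0.51 against 0.22 for all genes. Cxcl3 was at 1567 CPM in Ribavirin and 635 in Ribavirin-OVA, 0.405 times as high (0.383 to 0.428). Cxcl1 was at 87.6 and 20.8 CPM, a ratio of 0.238 (0.172 to 0.320), and Cxcl2 at 20760 and 11070 CPM, a ratio of 0.534 (0.526 to 0.541). All 3 chemokines thus stood lower with OVA here and higher with OVA in the vehicle libraries. Il1rn was at 1090 and 1779 CPM, 1.63 times as high (1.57 to 1.70), Ccl3 at 1074 and 1502 and Ccl4 at 1543 and 2624. Csf1, the macrophage growth factor, was at 338 and 930 CPM, 2.75 times as high (2.60 to 2.92).

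None of the 15 NF-kB genes was past 2-fold higher in Ribavirin-OVA over Ribavirin and Sod2 was lower, at 261 and 128 CPM (list median 0.06, and -0.27 with the other scaling). Nfkb1 was at 151 and 243 CPM, Tnfaip3 at 611 and 1039, and Nlrp3 at 908 and 545. Of the pattern recognition genes Cd14 was lower, at 3663 and 1780 CPM (list median -0.18). Of the Fc receptors Fcgr2b, the inhibitory one, was higher, at 66.3 and 252 CPM (-0.03), of the cytokine receptors Il6ra and Ifngr1 (0.36), and of the chemoattractant receptors none (0.48), with Fpr1 at 206 and 122 CPM. Cd177, a surface protein of mature neutrophils, was the 1 gene past 2-fold in the identity list (-0.11) and in the granule list (0.00, and -0.32 with the other scaling), at 25.4 and 91.8 CPM. S100a9 was at 62450 and 32570 CPM.

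Of the apoptosis list Bcl2l11 was higher, and Bcl2a1a, Bcl2a1b, Bcl2a1d and Bax were lower (median 0.27, and -0.06 with the other scaling). The Bcl2a1 genes are near-identical copies whose reads can be split among them. The S100 and stefin list again had 3 higher (Stfa2, Stfa3 and BC100530) and the same 3 S100 genes lower (-0.45). Egln3 and Ero1l were the glycolysis and hypoxia genes past 2-fold (0.46), Ptgs1 the lipid mediator (0.13, and -0.14 with the other scaling), Pecam1 the adhesion gene (0.30, and -0.02), Csf1 that of the Siglecf-positive programme (0.48), and Hspa1a, Hspa1b and Hsph1 those of the immediate early and heat shock list (0.52). Bhlhe40 was higher and Irf8 lower among the transcription factors (0.07, and -0.19). No gene of the oxidative burst (0.27, and -0.05), stress granule (0.53) or proliferation (0.10, and -0.03) lists was past 2-fold.

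Across all genes the 2 OVA pairs, which share no library, had a Pearson correlation of 0.49 and a Spearman correlation of 0.47 over 9563 genes, with no p since genes of a library are not independent. Past 2-fold higher in both were 62 genes, which is 18.5% of those higher in the vehicle pair and 13.9% of those higher in the ribavirin pair. Past 2-fold lower in both were 150 genes, 12.7% and 73.9% of the 2 lists. Over all genes, 3.50% were higher and 12.4% lower in the vehicle pair, and 4.67% were higher and 2.12% lower in the ribavirin pair. Past 2-fold in opposite directions were 8 genes: Bpifb6, Bpifb4, Kit, Cxcl3, Cxcl1 and Cd14, higher in the vehicle pair and lower in the ribavirin pair, and Ace and Adgre4, the reverse. Without the highest doublet scores Ace had -0.17 and 0.11 and Adgre4 -0.03 and 0.42, so that neither was past 2-fold in either pair. In the ribavirin pair Kit and Bpifb6 were not past 2-fold in that setting either, and Bpifb4 turned to 1.05. Cxcl3, Cxcl1 and Cd14 stayed past 2-fold in opposite directions.

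**Figure D4:**
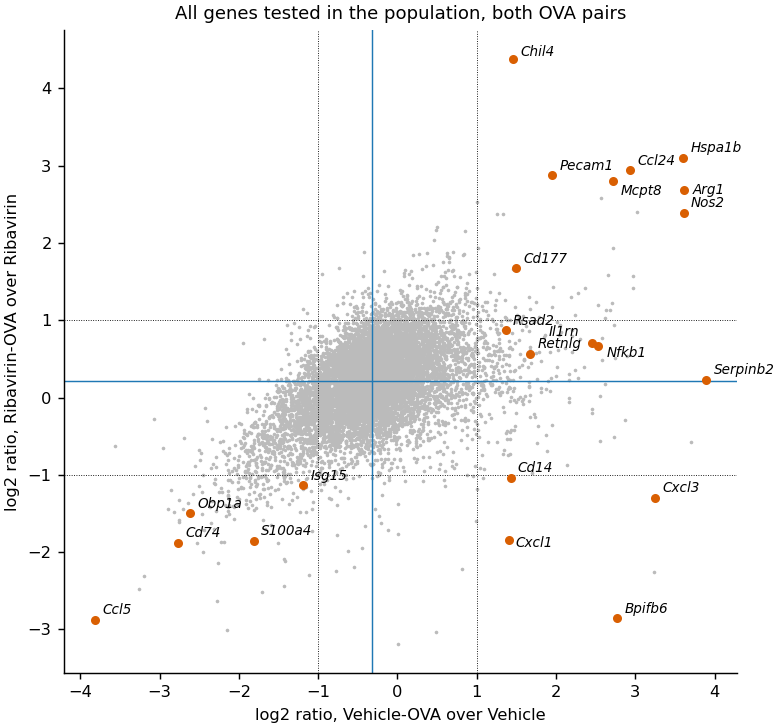
Log2 ratio of Vehicle-OVA over Vehicle (horizontal) against Ribavirin-OVA over Ribavirin (vertical) for the 9563 genes tested in the population. Blue lines mark the median of all genes, -0.32 and 0.22, and dotted lines 2-fold; Cxcl3 and Cxcl1 lie in the lower right corner, Arg1, Nos2 and Pecam1 in the upper right.

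Several genes higher with OVA in both pairs were at low levels. Nos2, the inducible nitric oxide synthase, was at 6.27 CPM in Vehicle, 133 in Vehicle-OVA, 4.68 in Ribavirin and 45.7 in Ribavirin-OVA, 21.2 (15.5 to 29.6) and 9.77 (6.67 to 14.6) times as high. It was seen in 16.7% of Vehicle-OVA and 7.68% of Ribavirin-OVA members, and stood at 13.2 and 0.954 CPM in the T cells and 43.2 and 8.71 CPM in the C1q-positive cells of those libraries. Nos2 was thus higher in the population than in both other cell types. Prnp, the prion protein, was at 45.2, 291, 49.1 and 318 CPM, 6.44 (5.72 to 7.28) and 6.48 (5.72 to 7.34) times as high, and F10, coagulation factor X, at 19.9, 159, 20.9 and 93.7 CPM, while F10 in C1q-positive cells was at 36.6, 219, 34.1 and 100.1 CPM.

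Pecam1, an adhesion molecule of endothelium and leukocytes, was at 14.7, 71.0, 11.3 and 115 CPM, ratios of 4.84 (3.92 to 6.04) and 10.2 (7.97 to 13). After thinning it was seen in 1.11%, 6.38%, 1.08% and 8.13% of members and in 5.12%, 9.52%, 5.37% and 7.97% of T cells. Cd177 was higher in both pairs, and Bcl2l11, Ero1l, Egln3, Il6, Ccl9, Stfa2 and BC100530 were the other genes of the lists above that were. Hspa1b, a heat-shock protein 70, was at 6.11, 130.2, 12.3 and 144 CPM, but in 1.17%, 7.37%, 1.93% and 3.84% of cells, and its log2 ratios of 3.6 and 3.1 were 2.51 and 1.11 without the highest doublet scores. Its neighbour Hspa1a, a near copy that may share its reads, was at 5.81, 82.7, 11.1 and 79.6 CPM, and its log2 ratios of 3.02 and 2.4 became 2.07 and 0.35 in that setting, the latter no longer past 2-fold.

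Lower with OVA in both pairs were S100a4, a calcium-binding protein of motile cells, at 157, 41.2, 136 and 33.9 CPM, ratios of 0.262 (0.235 to 0.293) and 0.25 (0.196 to 0.317), and S100a11, at 3822, 1719, 4065 and 1455 CPM. The log2 ratios of S100a4, -1.81 and -1.85, were -0.44 and -0.97 without the highest doublet scores and thus no longer past 2-fold, while those of S100a11 were -1.26 and -1.53. Ribosomal protein genes were lower as a group. Of 93, 79 were past 2-fold lower and 1 higher in the vehicle pair (median -1.65), and 44 lower in the ribavirin pair (median -0.97). Over all genes, 12.4% were lower in the vehicle pair and 2.12% in the ribavirin pair. The ribosomal medians were -0.41 for Ribavirin over Vehicle and 0.37 for Ribavirin-OVA over Vehicle-OVA. Genes with the shortest transcripts, of 183 to 1314 bases, had medians of -0.93 and -0.33 in the OVA pairs. S100a4 and S100a11 are among these short genes, and the part of length was not tested.

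Interferon-stimulated genes did not move together in the OVA pairs: 9 were below 0 in both, 8 above 0 in both and 5 had opposite signs. Of 22 genes 2 were past 2-fold higher and 3 lower in each OVA pair. Over all genes, 3.50% were higher and 12.4% lower in the vehicle pair, and 4.67% and 2.12% in the ribavirin pair. The list median was -0.30 in the vehicle pair, where all genes had -0.32, and 0.41 in the ribavirin pair, where they had 0.22, and the other scaling turned the former to 0.23 and gave 0.09 for the latter. Isg15, a ubiquitin-like protein, was at 1066 CPM in Vehicle, 466 in Vehicle-OVA, 998 in Ribavirin and 451 in Ribavirin-OVA, ratios of 0.437 (0.422 to 0.453) and 0.452 (0.423 to 0.483). Ifitm2, a membrane protein that hinders virus entry, was at 3547, 1510, 3644 and 1304 CPM, and Ifitm3 at 1357, 769, 1354 and 668 CPM. Both OVA libraries were below both others for each of these 3 genes, and with the other scaling Isg15 still had log2 ratios of -0.63 and -1.46.

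Other members of the list went the opposite way. Rsad2, the antiviral enzyme viperin, was at 325, 847, 324 and 598 CPM, 2.60 (2.48 to 2.73) and 1.84 (1.73 to 1.97) times as high with OVA. Slfn4, a schlafen of myeloid cells, was at 555, 1140, 667 and 888 CPM, Ifit2 at 35.9, 57.9, 24.3 and 99.1 CPM, and Ifit1 at 285, 380, 236 and 379 CPM. The last 2 belong to the family that binds foreign RNA ends. After thinning, Isg15 was seen in 42.4%, 24.4%, 41.6% and 23.2% of members and Rsad2 in 15%, 22.3%, 13.8% and 15.2%, and Isg15 in 10.1%, 7.71%, 10.2% and 6.64% of T cells.

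With scaling by total UMIs, the 9 genes below 0 in both OVA pairs (Ifitm2, Ifitm3, Isg15, Ifitm1, Ifit3, Rtp4, Gbp2, Xaf1 and Zbp1) had a median longest transcript of 1745 bases, and the 8 above 0 in both (Usp18, Ifit1, Oasl2, Cmpk2, Ifit2, Slfn4, Rsad2 and Herc6) of 3546 bases. Length moved with the ratio over all genes too: across 9549 genes with a length, Spearman's rho with the log2 ratio was 0.30 in the vehicle pair, 0.34 in the ribavirin pair, 0.08 for Ribavirin over Vehicle and -0.01 for Ribavirin-OVA over Vehicle-OVA. The 10% of genes with the shortest transcripts, 183 to 1314 bases, had medians of -0.93 and -0.33 in the OVA pairs, and the 10% with the longest -0.15 and 0.39. The part of length in the directions of the interferon genes was not tested. Ifit3 and Ifit3b are near copies and share reads.

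**Figure D5:**
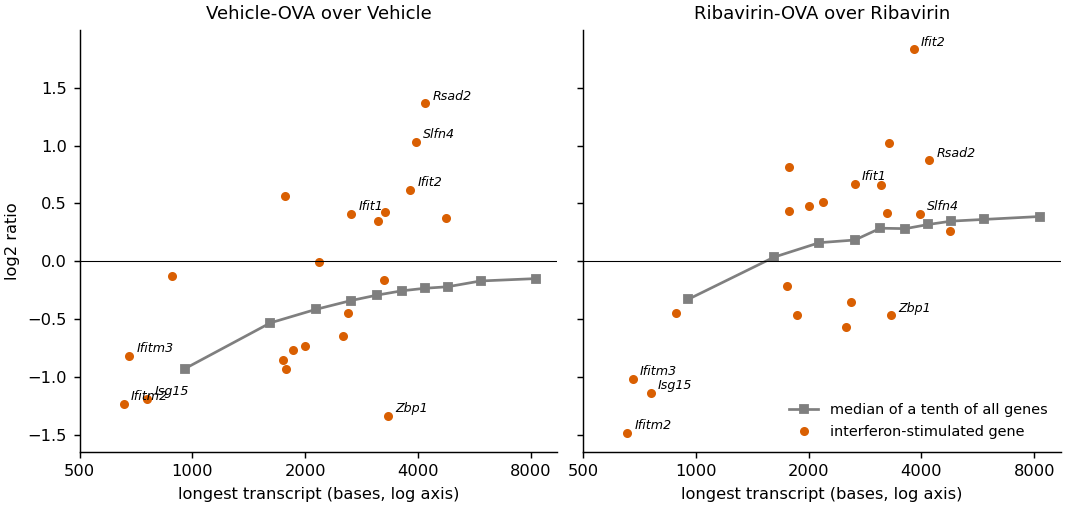
Log2 ratio of each OVA pair against the length of the longest transcript in bases, on a logarithmic axis. Orange points are interferon-stimulated genes of the list and the grey line joins the medians of 10 equal groups of all genes by length, which run from -0.93 to -0.15 in the vehicle pair and from -0.33 to 0.39 in the ribavirin pair.

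The promoters of genes from both directions are shown, since they share a motif while their ratios do not share a sign. They are the 250 bases before the start site from RefSeq (GRCm38.p6), with the core of the interferon-stimulated response element in capitals: GAAA, any 2 bases and GAAA, or on the other strand TTTC, any 2 bases and TTTC. Isg15 lies at chr4:156200819-156201068 on the minus strand, Ifitm2 at chr7:140955962-140956211 on the minus strand, Ifit1 at chr19:34640639-34640888 on the plus strand and Rsad2 at chr12:26456453-26456702 on the minus strand.
Isg15: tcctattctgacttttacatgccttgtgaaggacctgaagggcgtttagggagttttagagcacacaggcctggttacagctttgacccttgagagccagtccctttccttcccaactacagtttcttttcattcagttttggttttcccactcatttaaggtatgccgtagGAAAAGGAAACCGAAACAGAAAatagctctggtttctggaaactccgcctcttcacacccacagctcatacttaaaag
Ifitm2: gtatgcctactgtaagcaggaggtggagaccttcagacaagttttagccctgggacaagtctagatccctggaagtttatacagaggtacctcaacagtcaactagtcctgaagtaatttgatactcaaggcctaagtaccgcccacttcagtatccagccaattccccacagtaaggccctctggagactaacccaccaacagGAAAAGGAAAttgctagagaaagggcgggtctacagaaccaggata
Ifit1: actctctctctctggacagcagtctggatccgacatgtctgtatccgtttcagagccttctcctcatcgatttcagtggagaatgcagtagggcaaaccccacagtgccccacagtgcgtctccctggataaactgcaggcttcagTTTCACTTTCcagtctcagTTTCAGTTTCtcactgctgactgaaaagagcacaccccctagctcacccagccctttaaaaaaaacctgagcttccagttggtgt
Rsad2: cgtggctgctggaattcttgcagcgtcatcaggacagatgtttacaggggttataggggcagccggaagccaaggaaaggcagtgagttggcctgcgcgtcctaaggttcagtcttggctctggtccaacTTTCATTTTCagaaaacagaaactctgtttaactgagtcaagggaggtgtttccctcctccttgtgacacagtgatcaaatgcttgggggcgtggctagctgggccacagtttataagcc
Isg15 held 3 overlapping matches, Ifit1 2, and Ifitm2 and Rsad2 1 each. The motif was in 978 of 32851 promoters of this length (2.98%), in 2.88% of those of tested genes, and in 7 of 19 of the interferon list (36.8%: Gbp2, Ifit1, Ifit3, Ifit3b, Ifitm2, Isg15 and Rsad2; 18 genes matched). It was in 2 of 18 cytokine promoters (Cxcl10 and Vegfa) and in 0 of 15 of the NF-kB list, and the NF-kB letters were in 0 of 19 of the interferon list.

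Without OVA, the ribavirin and vehicle libraries differed little in this population. Of 9563 genes 73 (0.763%) were past 2-fold higher in Ribavirin and 20 (0.209%) lower, and 7 lower with the other scaling. Among the list genes these were Cxcl1 and Cxcl3, the epithelial genes Reg3g, Bpifa1 and Obp1a, and, lower, Irf8 and Siglech. Without the highest doublet scores Irf8 had a log2 ratio of 0.13 and Siglech of 0.14, so neither was lower in that setting. Cxcl3 was 4.90 (4.68 to 5.13) and Cxcl1 2.94 (2.51 to 3.46) times as high in Ribavirin as in Vehicle, and Cxcl2 1.73 times (1.71 to 1.74). Isg15 at 1066 and 998 CPM, Ifitm3 at 1357 and 1354 and Rsad2 at 325 and 324 were among the interferon genes, none of which was past 2-fold (median -0.16, and 0.09 with the other scaling).

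With OVA, 375 genes (3.92%) were past 2-fold higher and 131 (1.37%) lower in Ribavirin-OVA over Vehicle-OVA, and 41 and 445 with the other scaling. Cytokines were lower in 8 of 19 cases (Il1a, Il1rn, Il10, Cxcl1, Cxcl2, Cxcl3, Ccl3 and Ccl4; median -0.83) and NF-kB genes in 5 of 15 (Nfkb1, Nfkb2, Tnfaip3, Sod2 and Nlrp3; median -0.80), and no gene of either list was higher. Cxcl3 was 0.206 (0.195 to 0.217) times as high, Il1rn 0.457 (0.442 to 0.472) and Nfkb1 0.365 (0.334 to 0.399). Cd14 was at 5523 and 1780 CPM and Lcn2 at 1766 and 699 CPM. Hcar2, Wfdc21, Fpr1, Ero1l, Maff, Cd274, Stfa2, Gm5483, Bcl2a1d and Cflar were the other list genes lower, and Tgfbr1, Itga4, Itgax, Bak1, Dnajb1, Hsph1, Klf4 (1.09, and 0.21 without the highest doublet scores), Ltc4s and Ptgs1 were among those higher, leaving aside markers of other cell types. This comparison shares its libraries with the OVA pairs, so it restates the levels given above from another side.

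Serpinb2, an inhibitor of plasminogen activators made by myeloid cells, was the gene with the highest ratio in the vehicle OVA pair. It was at 1.53 CPM in Vehicle, 92.2 in Vehicle-OVA, 4.68 in Ribavirin and 6.33 in Ribavirin-OVA, 60.3 (32.7 to 126.1) and 1.35 (0.678 to 2.56) times as high with OVA. It was seen in 7.41% of Vehicle-OVA members, and stood at 11.8 CPM in T cells and 19.5 CPM in C1q-positive cells of that library. 2010005H15Rik was at 15.4, 115, 26.5 and 16.3 CPM, and Saa3, an acute-phase protein, at 91.9, 201, 69.2 and 33.9 CPM. All 3 were among the 5 lowest in Ribavirin-OVA over Vehicle-OVA.

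Many of the genes with the largest ratios belong to other cell types. Obp1a, an odorant-binding protein of nasal glands, was at 158, 21.6, 2122 and 749 CPM in the population, at 2649, 17.4, 12860 and 1044 CPM in T cells and at 32210, 4425, 59930 and 32260 CPM in Epcam-positive cells. It was seen in 25.7%, 6.46%, 88.5% and 79.0% of members and in 27.8%, 6.55%, 89.7% and 84.8% of T cells. Shares in the population and in T cells were thus alike within each library. Obp1b, Obp2a, Mup4 and the genes Gm6619, Gm14744, 5430401F13Rik and 5430402E10Rik, which led Ribavirin over Vehicle or Ribavirin-OVA over Vehicle-OVA with log2 ratios of 3.33 to 4.85, followed the same order of libraries. The Obp and Mup genes are families of near copies. Mup4 was at 33.5, 6.90, 586 and 192 CPM in members and 1004, 349, 4102 and 465 CPM in T cells.

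Chil4, a chitinase-like protein of epithelium and macrophages, had no UMI in Vehicle and was at 8.77, 4.43 and 191 CPM in the other members, beside 72.3, 2830, 692 and 15210 CPM in Epcam-positive cells and 0.513, 84.9, 99.6 and 1486 CPM in T cells. Arg1, arginase, was at 0.611 CPM (4 UMIs), 63.8, 1.35 and 35.7 CPM in members but at 11.3, 2605, 38.6 and 1319 CPM in C1q-positive cells and 9.27, 250.3, 35.7 and 130.3 CPM in T cells. Ccl24, an eosinophil-drawing chemokine, was at 0.153, 34.3, 0 and 33.5 CPM in members and 2.59, 1929, 8.6 and 854 CPM in C1q-positive cells. These 3 genes were each lower in the population than in another cell type of the same library. Mcpt8, a basophil protease, was at 0, 28.0, 0 and 29.9 CPM, all of it in 0.282% and 0.284% of the members of the OVA libraries, and Gata2 and Kit were the other tested genes of the mast cell and basophil list (medians 1.34 and 2.37 in the OVA pairs, and -0.20 in the ribavirin pair when cells were thinned before the choice). Kit was at 5.50, 17.1, 7.14 and 0.905 CPM.

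Gpx6, an olfactory glutathione peroxidase, was at 9.48, 184, 42.2 and 26.7 CPM but in 1.97% to 7.25% of members, and its log2 ratio of 3.70 for Vehicle-OVA over Vehicle became -0.23 when members with any UMI of 8 genes of other cell types were left out. Bpifb6 and Bpifb4, secreted proteins of nasal glands, were at 2.90, 49.0, 63.9 and 4.52 CPM and at 4.74, 86.7, 123 and 21.7 CPM, Bpifb6 in 0.722% to 1.66% of cells. Prss33, a serine protease, was at 48.6 CPM in Ribavirin and under 1 CPM elsewhere, in 0.193% of Ribavirin members, and Vmo1 at 14.8, 22.8, 187 and 18.6 CPM. Without the highest doublet scores the log2 ratios for Ribavirin over Vehicle were 0.01 for Prss33 and 0.35 for Vmo1 in place of 3.34 and 3.28.

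The lowest genes with OVA in the vehicle pair, Ccl5, Siglech, Ly6d, H2-Eb1 and Ccr9, are known from lymphoid and antigen-presenting cells. In the ribavirin pair the lowest were Prss33, Vmo1, Gm6619, Ccl5 and Bpifb6, and Siglech and Ccr9 had log2 ratios of -0.63 and -0.27. Ccl5, a chemokine of T cells, was at 244, 12.7, 144 and 15.4 CPM in members and at 1800, 1015, 1230 and 605 CPM in T cells. H2-Eb1 was at 408, 39.9, 325 and 61.5 CPM, and Cd74, the class II chaperone, at 1018, 145, 752 and 201 CPM, beside 14440, 4293, 10100 and 4033 CPM in C1q-positive cells. Siglech, a lectin of plasmacytoid dendritic cells, was at 109, 4.60, 32.9 and 19.5 CPM, in 2.29% of Vehicle members, and its log2 ratio of -3.57 for Vehicle-OVA over Vehicle was -0.34 without the highest doublet scores. Ccr9, Ly6d and Irf8 went with it: for the vehicle pair their log2 ratios of -3.06, -3.26 and -2.50 became -0.15, -0.96 and 0.17 in that setting. Cox6a2, Cd209d and Cd8b1 complete the 5 lowest in Ribavirin over Vehicle, at 45.6 and 10.7, 11 and 0.985, and 36.2 and 11.5 CPM, and none of these 3 was past 2-fold without the highest doublet scores (-0.16, -0.09 and -0.48).

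By lists, T and NK cell markers were lower in 5 of 8 cases in the vehicle OVA pair and 1 of 8 in the ribavirin OVA pair (medians -1.54 and -0.60), dendritic cell markers in 5 and 3 of 8 (-1.73 and -0.71), and B and plasma cell markers in 2 and 0 of 4 (-1.16 and -0.08). Monocyte and macrophage markers had Ly6c2 and Apoe lower of 11 in the vehicle pair (-0.61), and Adgre1 higher and F13a1 and Vcan lower in the ribavirin pair (-0.17). Apoe was at 834, 258, 769 and 493 CPM. Epithelial and olfactory markers had 3 of 7 lower (-0.68), then 1 higher and 2 lower (-0.07), in Ribavirin over Vehicle 3 higher (0.38) and in Ribavirin-OVA over Vehicle-OVA 5 higher and 1 lower (1.31). The 2 tested eosinophil markers (-0.58 and 0.41) and the 1 tested platelet gene, Pf4 (0.045 and -0.30), were not past 2-fold in either OVA pair.

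The spread between the members of a library was taken gene by gene, and it grows with a gene's level. Over cells thinned to 1000 UMIs the variance to mean ratio of the UMI count, which is 1 for pure counting, was at least 20.6 in every library for S100a8 and 18.8 for S100a9, then 12.8 for Ccl4, 10.5 for Fth1, the ferritin heavy chain, 10.1 for Retnlg, 9.83 for Cxcl10, 9.58 for Cxcl2, 8.45 for Cxcl3, 7.5 for Gm42418, 7.21 for Ccl3 and 6.2 for Malat1. The 22 interferon genes together gave a median of 13, 9, 12 and 7 UMIs per thinned cell, with 0.492%, 1.39%, 0.735% and 3.19% of cells at 0. The 10% of cells with the most interferon UMIs held 27.3%, 31.0%, 26.0% and 34.8% of them. Retnlg followed Cxcr2 in every library: from members with 2 Cxcr2 UMIs to those with 4 or more the level in Vehicle was 847 and 1745 CPM, that in Vehicle-OVA 3052 and 5399, that in Ribavirin 1301 and 2375, and that in Ribavirin-OVA 1645 and 3537 CPM. These groups are cut on a gene that the choice used, and Retnlg was not alone. S100a8, Lrg1 and Stfa2l1 were also higher with 4 or more Cxcr2 UMIs than with 2 in every library. G0s2 in Vehicle-OVA and Asprv1 in Ribavirin and Ribavirin-OVA were not. The rise was not always stepwise: Lrg1 in Ribavirin-OVA was at 449, 303 and 963 CPM with 2, 3 and 4 or more. Isg15 did not follow Cxcr2, with 1012 and 1029 CPM in Vehicle and 540 and 451 CPM in Vehicle-OVA. The counts in these cells are not thinned, and cells with more Cxcr2 UMIs were also deeper, with medians of 1919 and 2149 UMIs in Vehicle, 2800 and 3408 in Vehicle-OVA, 2510 and 2697 in Ribavirin, and 1814 and 3101 in Ribavirin-OVA.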

How the data were processed

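Droplet single-cell RNA-seq of CD45+ nasal cells was deposited by the authors as UMI counts per gene and cell, 1 filtered 10x matrix per library, not normalized; the submitters' processing notes name Cell Ranger 5.0.0 and the build mm10. All 27998 gene identifiers were read (56 symbols were shared by identifiers), every library's group came from its label, and 0 columns were left unused. Member UMIs were summed per library and scaled to CPM, with no count model, since each group had 1 library. Genes with at least 50 member UMIs over the libraries and not among the 13 used to choose the cells were compared as log2 ratios with 5 CPM added. Doublets were not removed in the reported values, and an alternative left out the cells with the highest Scrublet-style simulated-doublet scores, up to 0.4% per 1000 barcodes of a library. Thinning drew 1000 UMIs per cell with a fixed seed. The other scaling used the median of gene ratios. T cells, C1q-positive cells and Epcam-positive cells were taken by at least 2 UMIs of Cd3d, Cd3e and Cd3g, of the C1q genes or of Epcam. Transcript lengths and promoters came from GENCODE M21 and RefSeq (GRCm38.p6).

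The genes named were the 5 highest and 5 lowest ratios of each library pair, the 10 highest and lowest by the smallest ratio against each other neutrophil set, and members of 29 lists (349 genes, 6 symbols not found); Prnp, F10, Fth1, Ace and Adgre4 were added after their values were seen. A few list genes are counted in their lists but not reported here. The cells' rule and the lists were chosen with earlier results of these data known. Alternatives were another Cxcr2 threshold, mitochondrial limit, depth filter, denominator, scaling, pseudocount, gene filter or cell weight, and the removal of doublets or of members with UMIs of other cells. The scripts were tested on simulated data. Python 3.11.15, numpy 2.4.6, scipy 1.17.1, pandas 2.3.3, scikit-learn 1.9.0 and matplotlib 3.10.9 were used.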

Additional observations from a re-analysis of the deposited data

Results flagged for a closer look

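The share of the population was higher in the OVA library of the vehicle pair and lower in that of the ribavirin pair, with log2 ratios of 0.915 and -0.677. With 1 library per group the difference was not tested, for this share or for the genes that follow.

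Among genes past 2-fold in both OVA pairs, 8 had opposite signs. Cxcl3 had log2 ratios of 3.2506 in the vehicle pair and -1.2963 in the ribavirin pair, Cxcl1 of 1.403 and -1.8435, and Cd14 of 1.4263 and -1.0394. All 3 were at over 20 CPM in all 4 libraries. The other 5 were at lower levels in at least 1 library: Bpifb4 had 3.2352 and -2.2571, Bpifb6 2.7716 and -2.8543, Kit 1.0746 and -1.0396, Ace -1.1383 and 1.0897, and Adgre4 -1.1927 and 1.1429. Without the highest doublet scores, Ace had -0.17 and 0.11 and Adgre4 -0.03 and 0.42. In the ribavirin pair Kit then had -0.52 and Bpifb6 -0.10, and none of these values was past 2-fold. Bpifb4 turned to 1.05 in that pair. Ribavirin itself stood above Vehicle in Cxcl3, Cxcl1 and Cd14, so that the 2 pairs started from different levels.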

How the results depend on the processing

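No paired analysis was possible because each group had 1 library, and for the same reason no library was left out. The 4 log2 ratios of shares kept their direction in 9 of 9 alternatives each. For the 214 ratios of named genes past 2-fold, 2753 of 2782 values under the alternatives kept the direction and 2513 stayed past 2-fold; the 29 others are given here. Of the 214, 165 stayed past 2-fold without the highest doublet scores, 169 without members holding UMIs of other cells and 148 after thinning. The causes of the changes listed here were not tested. Depth limits low genes most, with 2210441 member UMIs in Ribavirin-OVA, and the library, the mice and the treatment cannot be told apart. Values are given in the order Vehicle-OVA over Vehicle, Ribavirin-OVA over Ribavirin, Ribavirin over Vehicle and Ribavirin-OVA over Vehicle-OVA unless named.

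Over the 4 neutrophil sets the log2 share ratios were 0.0598, -0.2026, 0.1116 and -0.1508. With every cell thinned to 1000 UMIs they were 0.7504, -0.241, 0.227 and -0.7643. The ratio for the vehicle pair was 1.0279 with 1 Cxcr2 UMI, 1.0005 with at least 1000 UMIs and 500 genes, and 0.992 without members holding UMIs of other cells. With a mitochondrial limit of 5% the ribavirin pair had -0.4302 and Ribavirin-OVA over Vehicle-OVA -0.9889.

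With 1 Cxcr2 UMI, 122 genes were past 2-fold lower in the ribavirin pair, 11 were lower in Ribavirin over Vehicle, 414 were lower than in Siglecf-positive and 123 lower than in Csf3-transcribing cells, and the ribavirin pair had 0.031 for Irf8 and 0.2746 for Kit. At 5% mitochondrial UMIs the vehicle pair had -0.1837 for Bpifb6 and -0.0605 for Gpx6, and Ribavirin-OVA over Vehicle-OVA had 0.8656 for Bpifb4, 0.4615 for Bpifb6 and 1.1791 for Gpx6.

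After thinning, 673 genes were lower in the vehicle pair, 42 higher in Ribavirin over Vehicle, 141 lower than in secondary-granule cells and 1467 higher than in Csf3-transcribing cells. Bpifb6 then had -0.1242 in the vehicle pair, the mast cell and basophil list a median of -0.2043 Bpifb4 1.1947 and Mcpt8 0.00 in the ribavirin pair, and Bpifb4, Bpifb6 and Gpx6 had 1.125, 0.5348 and 1.1834 in Ribavirin-OVA over Vehicle-OVA.

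Without the highest doublet scores, 125 genes were lower in the ribavirin pair, 5 lower in Ribavirin over Vehicle, 1211 lower than in Siglecf-positive cells, 205 lower than in secondary-granule cells and 1032 higher than in Csf3-transcribing cells. Irf8 had 0.1703 in the vehicle pair, Bpifb4 1.0496 and Prss33 0.1356 in the ribavirin pair, Ccr9 0.0102, Irf8 0.1327 and Siglech 0.1421 in Ribavirin over Vehicle, and Ace -0.0419 in Ribavirin-OVA over Vehicle-OVA.

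Without members holding UMIs of other cells, 771 genes were higher and 131 lower in the ribavirin pair, 759 higher in Ribavirin-OVA over Vehicle-OVA and 1130 lower than in Siglecf-positive cells. Bpifb6 had -0.0768 and Gpx6 -0.2336 in the vehicle pair, Bpifb4 1.3224 and Prss33 0.0938 in the ribavirin pair, Prss33 -0.0355 in Ribavirin over Vehicle, and Bpifb4, Bpifb6 and Gpx6 had 1.1451, 0.5612 and 1.4757 in Ribavirin-OVA over Vehicle-OVA.

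With median-of-ratios scaling the counts past 2-fold higher and lower were 889 and 460 in the vehicle pair, 121 and 389 in the ribavirin pair, 41 and 445 in Ribavirin-OVA over Vehicle-OVA, 498 and 99 against Siglecf-positive and 186 and 356 against Csf3-transcribing cells, with 7 lower in Ribavirin over Vehicle. With a pseudocount of 1 CPM, 2355 genes were lower in the vehicle pair, 972 higher and 487 lower in the ribavirin pair, 134 and 130 in Ribavirin over Vehicle, 1458 and 236 in Ribavirin-OVA over Vehicle-OVA, 1490 lower than in Siglecf-positive, 1282 lower than in secondary-granule and 1088 higher than in Csf3-transcribing cells. With the mean of single-cell CPM, 6 were lower in Ribavirin over Vehicle, 241 higher than in secondary-granule and 1061 higher than in Csf3-transcribing cells, and Bpifb4 had 0.1 in Ribavirin-OVA over Vehicle-OVA.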
